A study of Rattus norvegicus with 90 samples.

Results

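Primary rat hepatocytes were compared with rat renal proximal tubular epithelial cells after 9 h in vehicle, with 5 poly-A RNA libraries of each cell type. These 10 libraries were chosen by their labels (vehicle, 9 h, cell type) among the 90 libraries of the study, in which cultures of hepatocytes, renal cells and cardiomyocytes received vehicle or thioacetamide-S-oxide, a reactive liver metabolite of the toxicant thioacetamide. No culture described here received the toxicant. Both cell types came from Sprague-Dawley rats and were bought as cryopreserved cells, the hepatocytes (tissue label liver) and the renal cells (tissue label kidney) from different suppliers. The hepatocytes were grown on collagen and their vehicle was a hepatocyte maintenance medium, named MM250 in the labels and CC-3198 in the methods of the study. The renal cells were grown on poly-L-lysine and their vehicle was an epithelial medium, named EpiCM in the labels and EpiCM-a in the methods. Cell type, supplier, coating and medium therefore cannot be told apart in any difference below. Vehicle cultures of the same cell types at 24 h (5 renal and 4 hepatocyte libraries) and vehicle cardiomyocytes at 9 h (5 libraries) were used as further points of reference.

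Hepatocytes make up most of the liver's mass. They secrete the bulk of the plasma proteins, synthesise bile acids, store and release glucose, and carry much of the cytochrome P450 activity that activates compounds such as thioacetamide. Proximal tubular cells line the first segment of the nephron, where they take back most of the filtered glucose, amino acids, phosphate and protein through transporters and endocytic receptors. Both are polarised epithelia with many mitochondria, and both are known to lose part of their specialised expression in culture. In bulk RNA, a smaller number of cells that express a transcript and a lower level in each cell cannot be told apart.

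Estimated counts per library ranged from 15413513 to 34074008 (median 28314096 over the 10 libraries), of which 91.7% to 93.7% lay on transcripts, and no pair of libraries was identical. The labels do not say whether the 5 cultures of a cell type came from separate animals, so the p-values measure the spread between these cultures. The deposited tables name transcripts only by Ensembl identifier, and with the gene table used here, which holds no Ensembl identifiers, 0 of the 40071 transcripts were paired with a gene. An Ensembl annotation of this genome build was not used here. Genes are therefore not named, the labelled cell types were not checked against their markers, and the results are given for classes of transcripts and for 4 transcripts chosen by rule. Levels are in TPM (a count corrected for transcript length and scaled so that the transcripts of a library sum to 1000000).

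Each library resembled the libraries of its own cell type far more closely than those of the other. Spearman's rho of log2 CPM (counts scaled by library size) across the 18300 transcripts tested ranged from 0.985 to 0.992 over the 10 pairs of hepatocyte libraries, from 0.992 to 0.993 over the 10 pairs of renal libraries, and from 0.663 to 0.678 over the 25 pairs of a hepatocyte and a renal library. The hepatocyte cultures varied more among themselves, in part through 1 library. The SD over 5 libraries of log2 CPM had a median of 0.15 in hepatocytes and 0.099 in renal cells, and it was the larger in hepatocytes for 68.2% of transcripts. The ratio of these medians was 1.55, and 1.24 without hepatocyte library MS-95, which had the fewest counts.

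Most of the tested transcripts differed between the cell types. A transcript was called when its adjusted p was at most 0.05 (edgeR quasi-likelihood test, Benjamini-Hochberg adjustment over all transcripts tested) and its natural-log fold change was at least 0.41 in size, which is 1.51-fold. Of 18300 transcripts, 11230 (61.4%) were called, of which 5030 (27.5% of those tested) were higher in hepatocytes and 6200 (33.9%) were higher in renal cells. The size of the renal excess depended on the scale. With limma in place of edgeR, the calls were 3579 and 6597 on log2(TPM + 1), and 4003 and 7416 on log2(TPM + 0.1). The median log2 difference of all tested transcripts (hepatocytes minus renal cells) was -0.08, and the median size of the difference was 0.93. In 10743 of the called transcripts (95.7%), all 5 libraries of one cell type lay above all 5 of the other, against 75.7% of all tested transcripts. Leaving out any 1 library lost 1.55% to 2.56% of the calls and turned the sign of 0.

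A smaller set of transcripts could be shown to lie close together. For 4444 transcripts (24.3% of those tested), the 95% interval of the difference lay wholly within 1.5-fold in either direction, and 0 of these were called. The remaining 2626 transcripts (14.3%) were neither called nor bounded in this way. The alike transcripts held a mean of 35.9% ± 0.80 (SD, n = 5) of the TPM in hepatocytes and 42.0% ± 0.41 (SD, n = 5) in renal cells. Likeness here refers to the scale of the edgeR fit (TMM), and some of these transcripts differ by more than 1.5-fold in mean TPM.

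**Figure D1:**
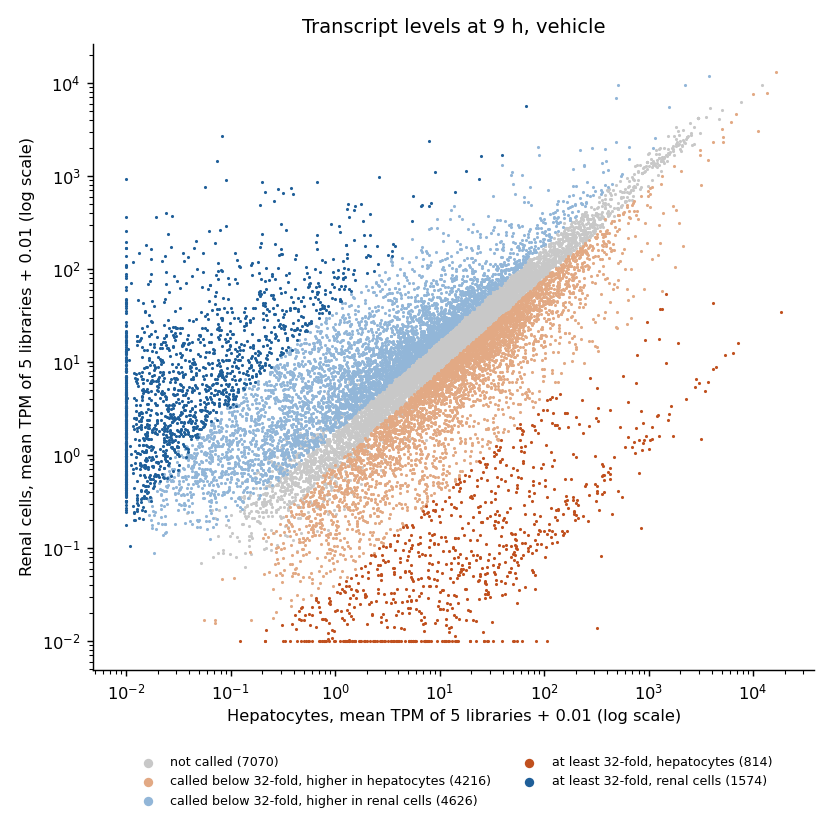
Mean TPM + 0.01 over 5 libraries in hepatocytes (horizontal, log scale) and in renal cells (vertical, log scale) at 9 h, with 1 point for each of the 18300 transcripts tested and colour giving its class. The 1574 renal transcripts at least 32-fold apart fill a cloud at the upper left, while many of the abundant transcripts among the 814 hepatocyte ones lie along a narrow band parallel to the diagonal.

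The balance between the directions moved with the level of the transcript. Among the 1602 transcripts whose higher mean was below 1 TPM, 44.0% were called higher in renal cells and 21.1% higher in hepatocytes. Among the 8434 transcripts between 10 and 100 TPM the shares were nearly equal, at 29.2% and 28.9%. Among the 1696 between 100 and 1000 TPM, 25.7% were called higher in renal cells and 36.3% higher in hepatocytes. Of the 216 at 1000 TPM or more, 16.7% were called higher in renal cells and 29.2% higher in hepatocytes. The size of these balances depended on the scale, and at 100 to 1000 TPM so did the direction. When the same fold was required of log2(mean TPM + 1), an alternative added after the data were seen that uses no TMM factors and no test, 31.96% of the transcripts between 100 and 1000 TPM were higher in renal cells and 30.1% in hepatocytes, and 36.0% and 21.4% of those between 10 and 100 TPM. Below 1 TPM these shares were 19.9% and 5.43%, with the direction unchanged, and at 1000 TPM or more 22.2% and 25.9%, a smaller hepatocyte excess. At that highest level, 44.4% of transcripts were alike within 1.5-fold and 45.8% were called, of which 30 were at least 32-fold higher in hepatocytes and 8 in renal cells.

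The RNA of the hepatocytes was the more concentrated in few transcripts. The smallest number of transcripts that together held 50% of the TPM ran from 248 to 280 in the hepatocyte libraries (median 263) and from 291 to 318 in the renal libraries (median 312). Every hepatocyte library lay below every renal one, with means of 262.8 ± 13.2 and 309 ± 10.6 (SD, n = 5 each). The difference of the means (hepatocytes minus renal cells) was -46.2 on TPM and -134.2 when CPM, which does not correct for length, was used in its place. The 10 most abundant transcripts held 11.1% ± 0.27 of the TPM in hepatocytes and 8.77% ± 0.15 in renal cells (SD, n = 5 each), again without overlap. The 2 measures placed the cardiomyocytes at 9 h differently. In their libraries 225 to 283 transcripts held 50%, which overlaps the hepatocytes, while the 10 most abundant held 7.63% to 8.57%. At a cut-off of 1 TPM, 15132 to 15210 transcripts were detected in hepatocytes and 16251 to 16525 in renal cells, a mean difference of 1241.8 in favour of the renal cells. Each of these 3 differences had p = 0.00794 in a two-sided exact permutation test over libraries, which is the smallest p that 5 against 5 can give and is also the value after Benjamini-Hochberg adjustment over the 3.

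**Figure D2:**
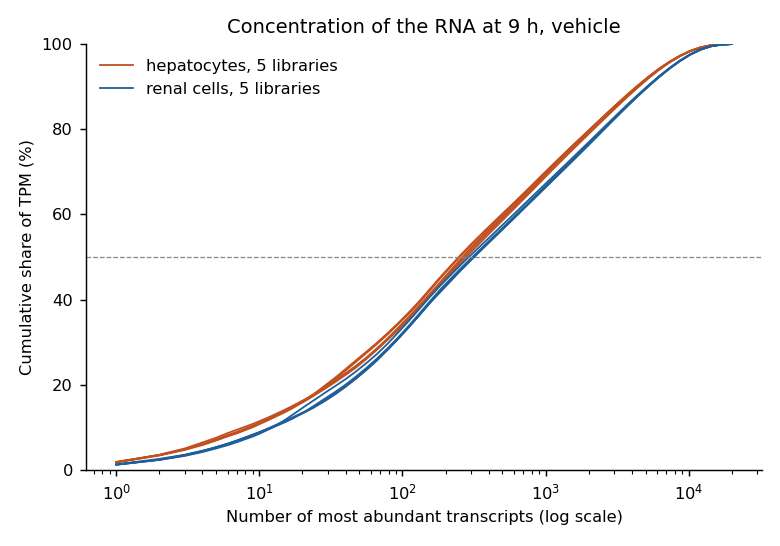
Cumulative share of TPM (%) held by the most abundant transcripts of a library (number of transcripts, log scale), with 1 line for each of the 5 hepatocyte and 5 renal libraries at 9 h and a dashed line at 50%. The hepatocyte lines reach 50% with 248 to 280 transcripts and the renal lines with 291 to 318.

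The lists of the most abundant transcripts overlapped widely. Of the 100 transcripts with the highest mean TPM in each cell type, 71 were on both lists, 71% of each. Among the hepatocyte list, 40 were called higher in hepatocytes, 3 were called lower and 43 were alike within 1.5-fold. Among the renal list, 19 were called higher in renal cells, 12 were called lower and 53 were alike. Over all tested transcripts, 27.5% were called higher in hepatocytes, 33.9% were called higher in renal cells and 24.3% were alike. The lists differed in how far their own transcripts fell in the other cell type: 19 of the hepatocyte list were at least 32-fold higher in hepatocytes and 12 ranked beyond the first 10000 transcripts of the renal cells, while 5 of the renal list were at least 32-fold higher in renal cells and 1 ranked that low in hepatocytes. A wider core of 6333 transcripts had at least 10 TPM in all 10 libraries. It held 82.4% ± 0.26 of the TPM in hepatocytes and 86.1% ± 0.12 in renal cells (SD, n = 5 each). Within this core, 41.9% were called and 48.2% were alike, against 61.4% and 24.3% of all tested transcripts. A minimum level in both cell types itself leaves out most large differences, and 16 of the core were at least 32-fold apart. The calls were 1744 higher in hepatocytes and 909 higher in renal cells, a balance that turned to 1147 and 1420 when the same fold was required of log2(mean TPM + 1).

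Transcripts at least 32-fold apart were mostly renal in number, except on the log2(TPM + 1) scale, and mostly hepatocyte in abundance. There were 814 in hepatocytes (4.45% of those tested) and 1574 in renal cells (8.6%), so 65.9% of these 2388 transcripts were higher in renal cells. The 814 hepatocyte transcripts held 15.0%, 14.6%, 15.5%, 14.7% and 14.4% of the TPM in hepatocyte libraries MS-91 to MS-95. In renal libraries MS-121 to MS-125, the same 814 held 0.0624%, 0.0680%, 0.0545%, 0.103% and 0.0541%. The 1574 renal transcripts held a mean of 6.94% ± 0.061 of the TPM of renal libraries and 0.0456% ± 0.0012 of hepatocyte libraries (SD, n = 5 each). These shares describe classes chosen from the same libraries and were not tested. The median level in the higher cell type was 17.0 TPM for the hepatocyte class (quartiles 4.54 and 64.9) and 6.0 TPM for the renal class (quartiles 1.93 and 21.5). Transcript length also differed, with medians of 1756 bases in the hepatocyte class, 2546 bases in the renal class and 2140 bases over all transcripts tested.

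The size of the largest differences depended on very low counts. In the hepatocyte class, 274 of 814 transcripts had at most 3 counts over all 5 renal libraries together, and in the renal class 685 of 1574 had at most 3 counts over all 5 hepatocyte libraries. When such a group was set at 3 counts in total, which makes the fold a lower bound, 789 hepatocyte and 1531 renal transcripts were still at least 32-fold apart. At 256-fold or more, the corresponding lower bounds were 341 hepatocyte and 429 renal transcripts. With limma, whose pseudocount draws low values together, the 32-fold counts in hepatocytes and renal cells were 417 and 529 on log2(CPM + 0.5), 570 and 956 on log2(TPM + 0.1) and 263 and 262 on log2(TPM + 1). The renal excess was present on the first 2 of these scales and absent on the last.

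The rule for individual transcripts took, in each direction, the 2 most abundant transcripts of the 32-fold class whose libraries did not overlap, so their large differences, lack of overlap and small p-values follow from the choice and are given as a description. ENSRNOT00000003921 (2069 bases) was the most abundant of the hepatocyte class. It stood at 19341, 18183, 19097, 18329 and 17632 TPM in hepatocyte libraries MS-91 to MS-95 and at 25.4, 34.6, 14.6, 84.2 and 14.5 TPM in renal libraries MS-121 to MS-125. Renal library MS-124 was the highest of the renal libraries. The log2 difference (hepatocytes minus renal cells) was 9.31 (SE 0.57, edgeR adjusted p = 1.22e-08), and 9.95 without renal library MS-124. In all 5 cardiomyocyte libraries this transcript was listed at 0.

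ENSRNOT00000041891 (1184 bases) was the second of the hepatocyte class. Its levels were 7459, 7063, 7566, 7102 and 6792 TPM in the hepatocyte libraries and 13.6, 15.0, 6.42, 36.3 and 7.66 TPM in the renal libraries in the same order. MS-124 was again the highest renal library. The log2 difference was 9.05 (SE 0.44, edgeR adjusted p = 1.27e-09), and 9.65 without MS-124. Cardiomyocytes lay between the other cell types, at 88.2 to 107 TPM.

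ENSRNOT00000024030 (1050 bases) was the most abundant of the renal class. Its levels were 5799, 5541, 5820, 5676 and 5603 TPM in renal libraries MS-121 to MS-125 and 79.6, 63.5, 67.7, 63.04 and 59.4 TPM in hepatocyte libraries MS-91 to MS-95. Both groups were narrow, with MS-91 the highest of the hepatocyte libraries. The log2 difference was -6.16 (SE 0.08, edgeR adjusted p = 1.53e-14). In cardiomyocytes it stood at 544 to 643 TPM.

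ENSRNOT00000010660 (1613 bases), the second of the renal class, had the fewest counts in the lower cell type at 9 h among the 4 named transcripts. It stood at 2679, 2638, 2646, 2685 and 2713 TPM in the renal libraries and at 0.121, 0.0632, 0.155, 0.0267 and 0 TPM in the hepatocyte libraries, which amounts to 12 counts over all 5. The ratio of pooled CPM was 30746 (95% interval 17601 to 59504, counting error only). The fitted log2 difference was -14.71 (edgeR adjusted p = 2.81e-16). Its edgeR SE of 0.11 is narrower than that counting interval allows and is too small for 12 counts. DESeq2 gave -14.77 with an SE of 0.42. Cardiomyocytes held 13.9 to 18.7 TPM.

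**Figure D3:**
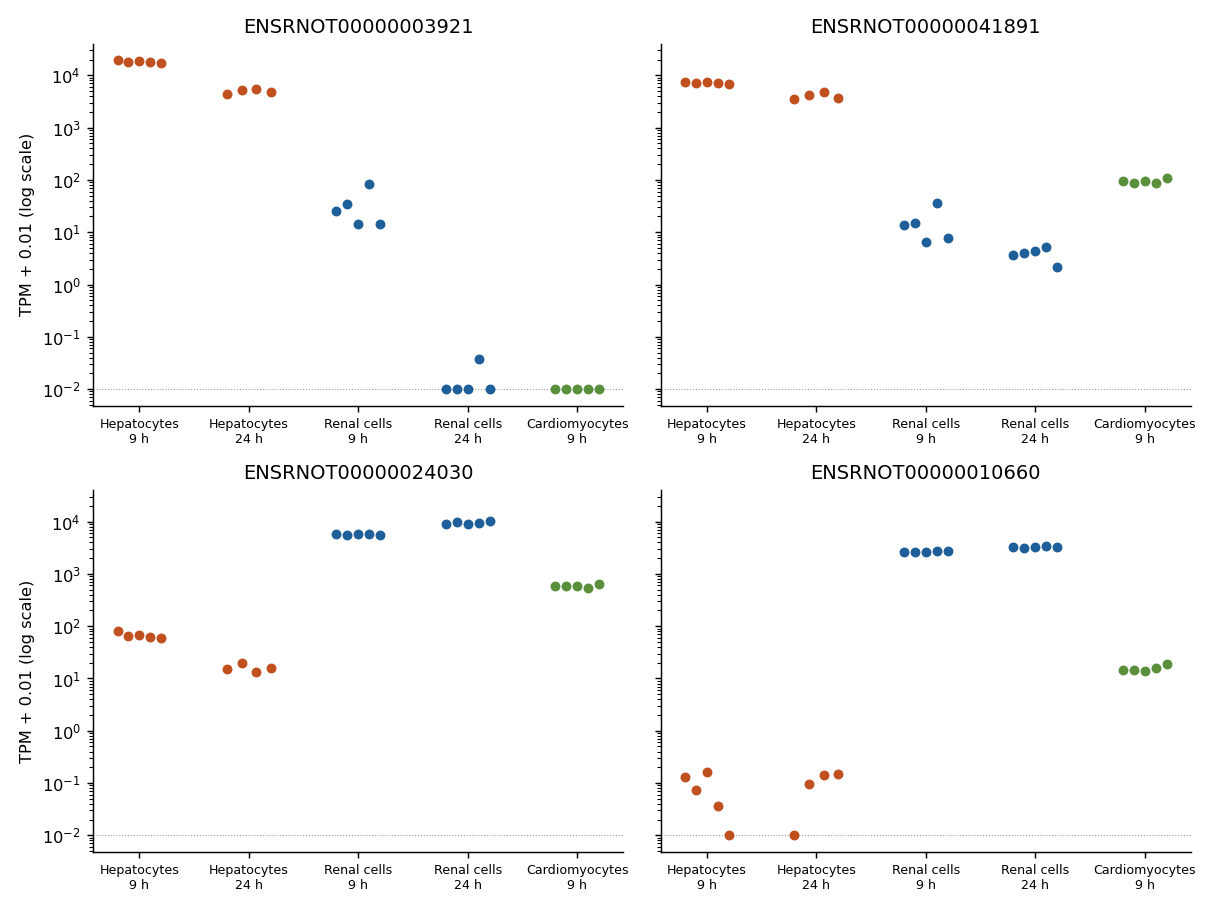
TPM + 0.01 (log scale) of the 4 transcripts named by rule in every library of 5 vehicle groups, with 1 point per library and a dotted line where a value of 0 falls. The upper pair, higher in hepatocytes, is scattered between 6.42 and 84.2 TPM in renal cells at 9 h, and ENSRNOT00000003921 is at or next to 0 in renal cells at 24 h and in cardiomyocytes.

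Nearly all of the most abundant transcripts of the hepatocyte class were found in each renal library at 9 h, at a low level that differed between libraries. This measure was chosen after the values had been seen. For the 100 most abundant transcripts of the hepatocyte class, the level in a renal library was taken as a percentage of the mean hepatocyte level. The median percentage was 0.133% in renal library MS-121, 0.193% in MS-122, 0.0881% in MS-123, 0.421% in MS-124 and 0.0773% in MS-125, so MS-124 was the highest and MS-123 and MS-125 were the lowest. Between 0 and 4 of the 100 transcripts were listed at 0 in these libraries. In the renal libraries at 24 h, the median was at most 0.00807% and 43 to 52 of the 100 were listed at 0, and in cardiomyocytes at 9 h it was at most 0.0076% with 44 to 50 listed at 0. The fall did not extend to all of these transcripts: 29 to 31 of the 100 were still at 1 TPM or more in the renal libraries at 24 h, with upper quartiles of 0.186% to 0.342%. The whole class of 814 held a mean of 0.0641% of the renal TPM at 24 h, against 0.0683% at 9 h. The medians over libraries were 0.0646% and 0.0624%, the other way round, since MS-124 raised the mean at 9 h. Pearson's r across the 100 transcripts between log10 hepatocyte TPM and log10 TPM + 0.01 in the library was 0.52 to 0.75 in the renal libraries at 9 h, 0.076 to 0.13 in those at 24 h and 0.13 to 0.17 in cardiomyocytes, as a description of transcripts that share their libraries.

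In the opposite direction the level varied less between libraries and more between transcripts. The 100 most abundant transcripts of the renal class had medians of 0.175% to 0.222% of their renal level in the hepatocyte libraries at 9 h, with 14 to 20 listed at 0. These medians lie within the range of the renal libraries at 9 h, and Pearson's r, taken in the same way, was 0.29 to 0.40. The middle 50% of these percentages spanned a ratio of 42.1 or more in every hepatocyte library, against 2.38 to 5.47 for the hepatocyte class in the renal libraries at 9 h. The 19.4% of the class that had a mean of 100 TPM or more in hepatocytes and were also tested at 24 h had log2 differences with quartiles of 7.37 and 9.71 at 9 h. The distance between the quartiles at 9 h was 2.34 for these transcripts, 3.34 for the hepatocyte class below 100 TPM, and 5.01 and 2.80 for the renal class at and below that level. What placed hepatocyte transcripts in the renal libraries of 9 h was not tested, and the fold changes of these transcripts at 9 h rest on that level.

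**Figure D4:**
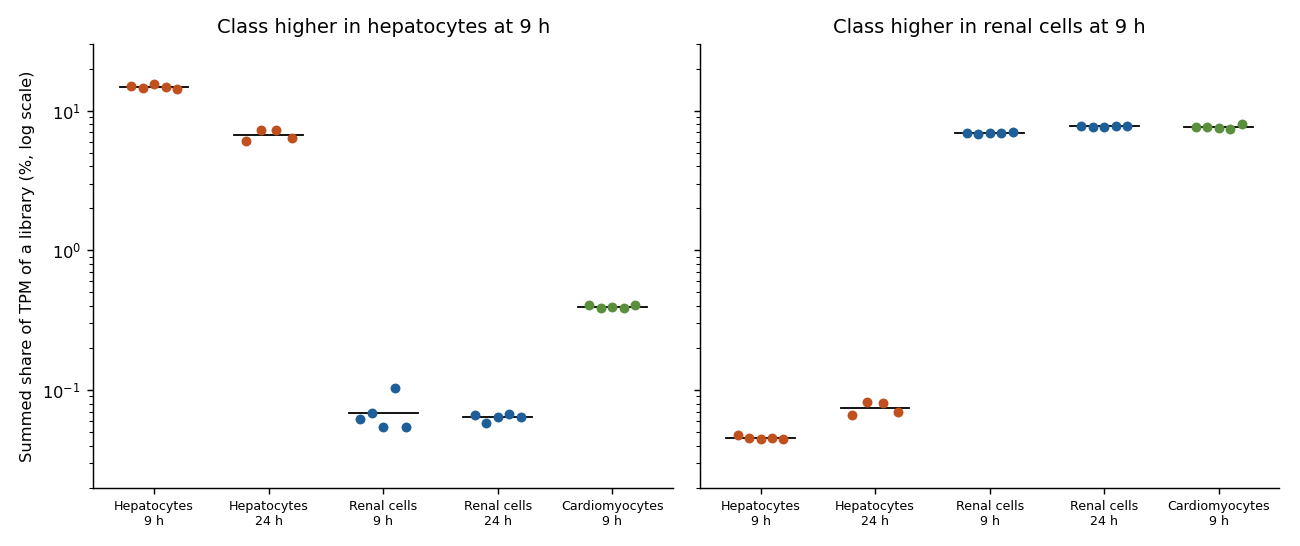
Summed share of TPM (%, log scale) of the 814 transcripts at least 32-fold higher in hepatocytes at 9 h (left) and the 1574 at least 32-fold higher in renal cells at 9 h (right), with 1 point per library and a bar at the mean of the group. Cardiomyocytes hold 0.396% of their TPM in the hepatocyte class and 7.63% in the renal class, and renal library MS-124 stands above the other renal libraries in the left panel.

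Strictly restricted transcripts were fewer, and the number restricted to hepatocytes depended on renal library MS-124. With at least 10 TPM in all 5 libraries of one cell type and below 0.1 TPM in all 5 of the other, 77 transcripts were restricted to hepatocytes and 194 to renal cells, which is 1.01% of the 7627 and 2.24% of the 8652 transcripts at that level in the cell type. The hepatocyte-restricted transcripts reached at most 319 TPM, since more abundant ones exceeded 0.1 TPM in at least 1 renal library, and they held 0.243% ± 0.012 of the hepatocyte TPM (SD, n = 5). The renal-restricted transcripts reached 916 TPM and held 1.04% ± 0.013 of the renal TPM (SD, n = 5). Without renal library MS-124, 1.53% of the hepatocyte transcripts and 2.24% of the renal ones were restricted. With a limit of 0.5 TPM in place of 0.1 TPM, the numbers were 235 and 418, so renal-restricted transcripts were the more numerous under each of these rules at 9 h. At 24 h the shares were close, with 1.88% of the 6876 hepatocyte and 1.74% of the 8059 renal transcripts at that level restricted, and 17 of the 77 hepatocyte and 89 of the 194 renal transcripts restricted at 9 h were restricted again.

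Cardiomyocytes, which played no part in choosing the classes, held much more of the renal class than of the hepatocyte class. The 1574 renal transcripts held 7.63% ± 0.23 of the cardiomyocyte TPM, above their 6.94% ± 0.061 in the renal cells themselves, while the 814 hepatocyte transcripts held 0.396% ± 0.010 (SD, n = 5 each). In the renal class, 485 transcripts (30.8%) had at least 10 TPM in all 5 cardiomyocyte libraries and 10.9% were below 0.1 TPM in all 5. In the hepatocyte class, 45 (5.53%) had at least 10 TPM and 414 (50.9%) were below 0.1 TPM. Over all tested transcripts the corresponding shares were 43.7% and 5.17%. Of the restricted transcripts, 1 of 77 in hepatocytes and 85 of 194 in renal cells had at least 10 TPM in all 5 cardiomyocyte libraries. At the lower limit of 1 TPM in all 5 cardiomyocyte libraries, 58.8% of the renal class and 17.2% of the hepatocyte class were present, against 75.7% of all tested transcripts.

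The same comparison was made in separate libraries at 24 h. Hepatocyte library MS-183 was left out because 8.33% of its counts lay on transcripts, which left 4 hepatocyte and 5 renal libraries. There, 11458 of 18382 transcripts were called (62.3%), and 7455 with MS-183 included. Of the 9 h calls, 10830 were tested at 24 h, of which 8476 (78.3%) were called in the same direction and 229 in the other. Of the 2388 transcripts at least 32-fold apart at 9 h, 2217 were tested at 24 h, and 2210 of those were called the same way. The rest of the 2388 had too few counts at 24 h to be tested.

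**Figure D5:**
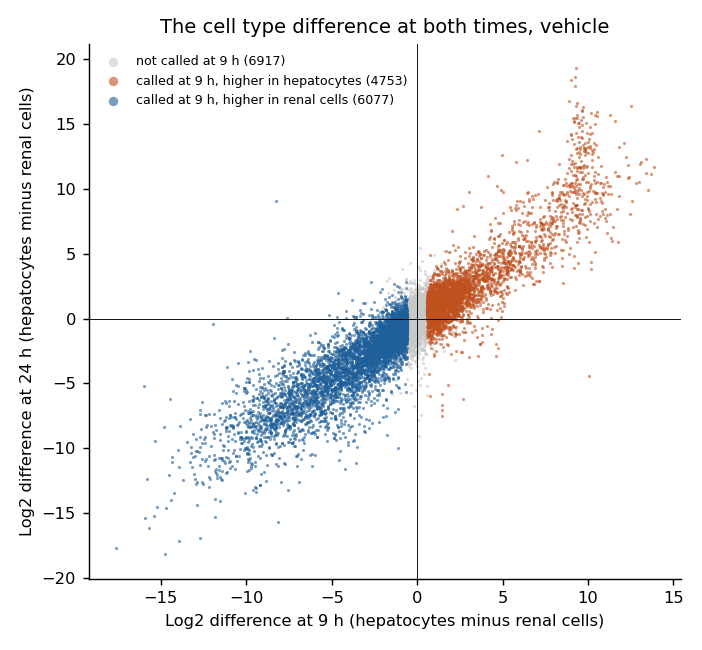
Log2 difference (hepatocytes minus renal cells) of the 17747 transcripts tested at both times, at 9 h (horizontal) and at 24 h (vertical, without hepatocyte library MS-183), with colour giving the 9 h call. Of the 9 h calls, 78.3% were called in the same direction at 24 h, and the most extreme values rest on groups with few or no counts.

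The size of the cell type difference itself differed between the times for 6465 of 19707 transcripts (32.8%) in an edgeR test of the interaction, 3170 of them with a more positive and 3295 with a more negative hepatocyte-minus-renal difference at 24 h. The hepatocytes moved more over this time, and the libraries of both cell types at 24 h also differed in makeup from those at 9 h. In the 4 hepatocyte libraries at 24 h, 107 to 197 transcripts held 50% of the TPM and the 10 most abundant held 12.8% to 20.4%, and library MS-181 had 84.1% of its counts on transcripts. In the renal libraries at 24 h, 222 to 295 transcripts held 50% and the 10 most abundant held 10.8% to 16.2%. The part of these in the results at 24 h was not tested. Between 9 h and 24 h the median size of the log2 change was 0.52 in hepatocytes, with 6672 transcripts called, and 0.21 in renal cells, with 1542 called. In the 32-fold classes, 298 of 814 hepatocyte and 588 of 1574 renal transcripts had an interaction, close to the share over all transcripts. The hepatocyte class fell from 14.8% ± 0.41 (SD, n = 5) of the hepatocyte TPM at 9 h to 6.72% ± 0.60 (SD, n = 4) at 24 h, whereas the renal class held 6.94% of the renal TPM at 9 h and 7.70% ± 0.11 (SD, n = 5) at 24 h. Because the classes were chosen at 9 h, these shares are a description. On the log2(TPM + 0.1) scale, 67.6% of the 814 hepatocyte transcripts were at least 2-fold lower in hepatocytes at 24 h than at 9 h and 4.18% were at least 2-fold higher, against 14.7% and 4.81% of all tested transcripts in hepatocytes. In renal cells, 7.05% of the 1574 renal transcripts were lower and 3.37% higher by that amount, against 2.82% and 1.43% of all tested transcripts.

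The named transcripts showed each of these courses. ENSRNOT00000003921 stood at 4447, 5343, 5463 and 4781 TPM in the hepatocyte libraries at 24 h, and at 0 TPM in 4 renal libraries and 0.0269 TPM, a single count, in the fifth. Its interaction passed the test (edgeR adjusted p = 7.87e-07), with both cell types lower at 24 h. ENSRNOT00000041891 was at 3589 to 4814 TPM in hepatocytes and 2.17 to 5.25 TPM in renal cells at 24 h. Its interaction also passed (log2 1.34, SE 0.48, edgeR adjusted p = 0.0275), but its size depended on renal library MS-124. The difference at 9 h was 9.05 with that library and 9.65 without it, against 10.44 at 24 h. ENSRNOT00000024030 was at 9064 to 10279 TPM in renal cells and at 13.5 to 19.8 TPM in hepatocytes, so that its difference was wider at 24 h (interaction log2 -2.70, SE 0.14, edgeR adjusted p = 8.72e-12). ENSRNOT00000010660 was at 3146 to 3378 TPM in renal cells and 0 to 0.139 TPM in hepatocytes. Its interaction was 0.01 (SE 0.21, edgeR adjusted p = 0.995). This estimate rests on 12 hepatocyte counts in all at 9 h and 11 at 24 h, for which that SE is too small. Whether its difference changed modestly between the times cannot be told from so few counts.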

How the data were processed

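Poly-A-enriched libraries of 5 vehicle hepatocyte and 5 vehicle renal cultures at 9 h were analysed, with 10 vehicle libraries of these cells at 24 h and 5 of cardiomyocytes at 9 h. Groups came from the sample labels. The authors pseudo-aligned reads with Kallisto (0.42.4 in the submitters' processing notes) to the Rnor_6.0 transcriptome and deposited, per target, an estimated count, which need not be whole because shared reads are divided among transcripts, a TPM value, and a length and effective length. Of 65166 targets, 40071 are transcripts, and the 25095 genomic intervals were left out. TPM was rescaled so that the transcripts of a library sum to 1000000. The strand setting of the counting is not given in the sources used here, so overlapping antisense transcripts and transcripts of near-identical copies are uncertain. Of the transcripts with a count at 9 h, 45.5% had whole counts in all 10 libraries (within 0.001).

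Counts were rounded and tested with edgeR 4.0.16 under R 4.3.3 (TMM, filterByExpr, glmQLFit, glmQLFTest), with Benjamini-Hochberg adjustment. SEs are the log2 difference divided by the square root of F, and can be too small where a group holds few counts. Calls used the study's thresholds, an adjusted p of 0.05 and a fold of 0.41 on the natural-log scale. Per-library measures were compared by exact permutation. Functions were tested on simulated data. Alternatives were DESeq2 1.42.0, upper-quartile scaling, other filters, limma 3.58.1 on CPM or TPM, other cut-offs and each library left out in turn. Named transcripts were, in each direction, the 2 with the highest mean TPM among those at least 32-fold apart whose libraries did not overlap. The comparison, classes and lists were chosen with earlier results of these data known. Marker lists of cell types had been planned and were not used, because 0 transcripts were paired with genes. Depth (median 28314096 counts) leaves little counting error except near 0, and the interval of a ratio of pooled CPM covers counting error only. The intervals behind the alike transcripts come from the edgeR SE and include the spread between libraries.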

Additional observations from a re-analysis of the deposited data

Results flagged for a closer look

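In groups of 5 libraries, 8 of 46 groups examined held a library whose gap to its neighbour was large for the range of the group. For a single group, chance alone gives about 1 in 20. The 46 are overlapping measures of the same 10 libraries, so their number cannot be set against that rate. Of the 8, 4 concern hepatocyte transcripts in renal library MS-124. That library was the highest of its group for the summed share of the 32-fold hepatocyte class (0.103% of TPM), for the hepatocyte-restricted transcripts (0.000234% of TPM), for ENSRNOT00000003921 (84.2 TPM) and for ENSRNOT00000041891 (36.3 TPM). It was also the deepest renal library (30970392 counts), with 92.2% of its counts on transcripts. The origin of the signal was not tested. Of the remaining 4, renal library MS-122 had the highest share of TPM in the 100 most abundant transcripts (33.4%), hepatocyte library MS-91 the highest share of the 32-fold renal class (0.0477%), and hepatocyte library MS-95 the most transcripts at 10 TPM or more (8403) and the fewest counts (15413513).

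The cell type difference differed between 9 h and 24 h for 6465 transcripts. Among the named transcripts the interaction was 10.01 on the log2 scale for ENSRNOT00000003921, a fitted size that depends on the prior count since the renal libraries at 24 h held 1 count in all, 1.34 for ENSRNOT00000041891 and -2.70 for ENSRNOT00000024030. Between 6.28% and 8.25% of the counts of the 10 libraries lay on genomic intervals, which no comparison here used.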

How the results depend on the processing

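Of 356 recomputed values, 330 were counted as unchanged. Unchanged meant on the same side of the threshold for a test, and within 1.5-fold for a count or ratio. For a balance of direction it meant within 10 percentage points, and for the median log2 difference within 0.1. By that rule the share of 9 h calls higher in hepatocytes counted as unchanged. It was 44.8% in the main fit, 35.2% on log2(TPM + 1) and 35.1% on log2(TPM + 0.1). The reversed values were balances of direction on log2(mean TPM + 1), where the excess of hepatocyte over renal transcripts was -1.83 percentage points between 100 and 1000 TPM (10.6 with TMM) and -4.33 in the shared core (13.2 with TMM). With limma, transcripts at least 32-fold higher in hepatocytes and in renal cells numbered 417 and 529 on log2(CPM + 0.5), 263 and 262 on log2(TPM + 1), and in renal cells 956 on log2(TPM + 0.1). On the TPM scales the median difference of all transcripts moved from -0.08 to -0.26 and -0.33. Restricting the fit to transcripts with whole counts, which tests fewer transcripts, gave 4802 calls (2176 and 2626), 317 and 744 at least 32-fold apart and 2090 alike, with 64.4% of those tested called. Within 2-fold, 7707 were alike. With hepatocyte library MS-183 the 24 h calls numbered 7455. The shares of hepatocyte and renal transcripts that were restricted were 3.40% and 6.05% at 5 TPM against 0.5 TPM, 3.08% and 4.83% at 10 TPM against 0.5 TPM, and 0.664% and 1.49% at 1 TPM against 0, and the hepatocyte share ranged from 1.0% to 1.53% with 1 library left out. At 1 TPM in place of 10 TPM, 2 hepatocyte-restricted transcripts were present in all cardiomyocyte libraries, and 1 at 10 TPM. No paired analysis was possible because the groups share no replicate number. Low counts limit the size of the largest fold changes.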
